A study of Mus musculus with 12 samples.

Results

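The heat shock proteins and chaperones described here are 10 genes, Hsp90aa1, Hsp90ab1, Hspa8, Hspa1a, Hspa1b, Hsph1, Dnajb1, Hspb1, Hspd1 and Hspe1. They were chosen by name as the rows of a table of read counts whose identifier carries one of these symbols in GENCODE M21, and the rule uses no measured value. All 10 were found among the 33217 Ensembl genes of the table, and all 10 were among the 14340 genes that passed the filter on low counts. Hspb1 passed only through the WT samples and is set apart below.

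Bulk RNA-seq was performed on MC38 tumor cells, a mouse colon cancer line, that were either WT or homozygous for Rac1 A159V, a change in a small GTPase of the cytoskeleton introduced by CRISPR-Cas9 knock-in. Both kinds of cells were grown as tumors in C57BL/6 mice, whose immune system is intact, and the mice received anti-PD1, an antibody against a T cell checkpoint receptor, or IgG, its isotype control. The tumors were digested with warm collagenase and the tumor cells were purified magnetically before RNA extraction, so every sample, controls included, carries whatever the digestion induced. The 4 groups hold n = 3 mice each and are called WT IgG and WT anti-PD1 for the unedited cells, and A159V IgG and A159V anti-PD1 for the edited ones. The edited line is a clone, so genotype and clone cannot be told apart.

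Heat shock proteins are molecular chaperones that bind unfolded proteins and help them fold. HSP70 and its J-domain partners hold nascent or damaged chains, HSP90 completes the folding of kinases and receptors, and HSP60 with its cochaperonin works in mitochondria. Some members are made at all times, whereas others are induced by heat or proteotoxic stress through HSF1, a transcription factor that binds heat shock elements, inverted repeats of nGAAn. Enzymatic digestion of a tissue is itself known to induce several of these genes, together with immediate early genes such as Fos and Egr1.

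The promoters were examined first, since several members share the same regulatory letters. RefSeq promoters (GRCm38.p6, 250 bases before to 50 after the start) were found for 7 members, and none was found for Hsp90aa1, Hsp90ab1 and Hspa8. The 250 bases upstream of Hspa1a, at chr17:34972157-34972406 on the minus strand, are shown because this gene and Hspa1b changed most among the abundant members. Capitals mark 2 inverted units of a heat shock element (GAANNTTC or TTCNNGAA), which 15.1% of 32851 promoters hold on either strand.
Hspa1a: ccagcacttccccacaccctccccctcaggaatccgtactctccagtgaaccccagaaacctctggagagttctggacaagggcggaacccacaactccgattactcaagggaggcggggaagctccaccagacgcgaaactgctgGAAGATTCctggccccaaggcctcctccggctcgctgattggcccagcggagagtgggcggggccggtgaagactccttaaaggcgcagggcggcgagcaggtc

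The upstream 250 bases of Hspa1b matched those of Hspa1a at 247 positions and differed at 3, C44T, T47C and T249G, counted from the 5′ end with the Hspa1a base first. The element lay 104 to 97 bases before the start in both. A run of 3 alternating units (GAANNTTCNNGAA or TTCNNGAANNTTC) was rarer, in 0.603% of all promoters. Hspd1 and Hspe1 lie head to head on chromosome 1 with overlapping ends, and a longer run, of 4 alternating units, lies upstream of Hspe1. The same run lies upstream of the Hspd1 start at 55087932. It falls inside the gene for the Hspd1 start at 55088243, whose window held no pair of units. Hsph1 held a run of 3 just inside its transcript, and Hspb1 held 2 separate pairs of units. The stretches below are shown to compare how the units are arranged, with the units in capitals.
Hspe1, chr1:55088053-55088082, plus strand: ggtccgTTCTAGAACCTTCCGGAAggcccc
Hsph1, chr5:149636287-149636316, minus strand: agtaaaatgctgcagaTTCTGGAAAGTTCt
Hspb1, chr5:135887801-135887830, plus strand: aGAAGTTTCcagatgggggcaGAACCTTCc

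No pair of units was found in the Dnajb1 window, which says only that these letters are not in it. A CCAAT box (CCAAT, 37.4% of promoters) was present in Hspa1a, Hspa1b, Hsph1, Dnajb1 and 1 of the Hspd1 windows, and a TATA box (TATAAA, 13.6% of promoters) in none of the 7.

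The levels spanned more than 3 orders of magnitude. Levels are given as CPM, which are counts scaled to library size by TMM, and, where genes are compared with each other, as CPM per kb of exon. In WT IgG, Hsp90ab1, the constitutive cytosolic HSP90, was highest at 1494 CPM per kb, followed by Hspa8, the constitutive HSP70, at 873. Hspd1, the mitochondrial HSP60, stood at 430, Hsp90aa1, the inducible HSP90, at 332, and Hspa1b at 289. Hspe1, the cochaperonin of HSP60, followed at 236, Dnajb1, a J-domain partner of HSP70, at 116, Hspa1a at 96.1 and Hsph1, a nucleotide exchange factor of HSP70, at 72.6 CPM per kb. Hspb1, a small heat shock protein, was last at 0.714. In this order the ranges of neighbors overlapped for Hspa1b and Hspe1 and for Dnajb1 and Hspa1a. The first 4 ranks were the same in all 4 groups, and Hspa1b stood at rank 5 in WT IgG and at rank 6 or 7 in the other groups.

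**Figure D1:**
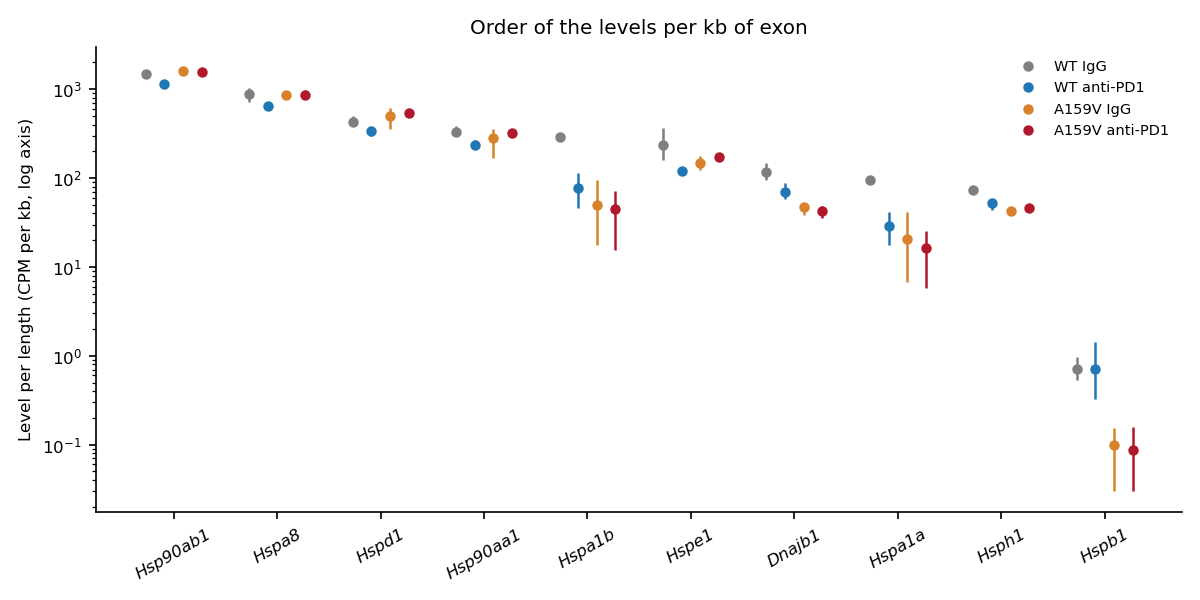
Level of each gene per kb of exon (log axis) in the 4 groups, with points for the mean and lines from the lowest to the highest of 3 samples; lines of samples at 0 are drawn down to 0.03. Hsp90ab1 and Hspa8 are highest in every group, and Hspb1 is lowest in every group.

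Total counts ranged from 14053582 to 21949942 per sample, and 3 counts, taken as the floor of detection, correspond to 0.137 to 0.213 CPM, which covers counting error only. A159V IgG replicate 5 stood apart for several members, with 663 CPM of Hsp90aa1 against 1414 and 1266 in the other samples of its group. It was also the library that edgeR took as the TMM reference, by a margin of 1.16e-07 against 1.22e-07 for A159V IgG replicate 1 in the distance of its upper quartile from the mean. With each of the 12 libraries as reference in turn, added after the data were seen, the median log2 change of all genes between A159V IgG and WT IgG ran from -0.09 to 0.02, and the calls ran from 2231 higher and 1779 lower to 1521 higher and 2177 lower. Member calls that depend on this choice are named where they occur.

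The comparison of A159V IgG with WT IgG asks how the edited clone differs from WT in control tumors. The inducible HSP70 genes Hspa1a and Hspa1b, their partners Dnajb1 and Hsph1, and Hspb1 were lower in A159V. The constitutive members, the inducible Hsp90aa1 and the mitochondrial pair were not called. A gene was called where the quasi-likelihood test of edgeR gave an adjusted p under 0.05 and the log2 fold change exceeded 0.3 in size. Of the 10 members, 0 were higher and 5 were lower, beside 15.6% of all genes tested called higher and 12.4% called lower. Without Hspb1 the count was 4 of 9. The groups did not overlap for 35.8% of all genes tested, and for these 5 members. Without A159V IgG replicate 2, 3 members were called, and Hspa1a and Hspb1 lost their calls, while 1440 genes were called higher and 1138 lower of 14695. Hspb1 also lost its call without WT IgG replicate 4 or A159V IgG replicate 1.

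Hspa1b, a stress-inducible HSP70 at chr17:34956436-34959238 on the minus strand (mm10), measured 836, 828 and 763 CPM in WT IgG and 50.1, 100 and 267 CPM in A159V IgG. The groups did not overlap, and the A159V samples differed from each other far more than the WT samples did. The log2 fold change was -2.54 ± 0.59 (SE), with an adjusted p of 0.00788. Hspa1a, which encodes an almost identical protein, measured 256, 308 and 292 CPM in WT IgG and 19.9, 40.3 and 122 CPM in A159V IgG. It changed by -2.23 ± 0.60 on the log2 scale (adjusted p = 0.0161). The split of reads between the pair is uncertain. Of the windows of 100 bases of the Hspa1a transcript, 47.1% occur in Hspa1b and 56.5% in any other gene. Of those of Hspa1b, 49.9% occur in Hspa1a. The counts of the pair were therefore also summed. The sum changed by -2.45 on the log2 scale with an adjusted p of 0.00979. The ratio of Hspa1b to Hspa1a stayed between 2.19 and 3.26 in all 12 samples.

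Dnajb1, at chr8:83608193-83612653 on the plus strand (mm10), measured 472, 339 and 307 CPM in WT IgG and 122, 158 and 170 CPM in A159V IgG, with no overlap. Its log2 fold change was -1.31 ± 0.21 (adjusted p = 0.00104). Hsph1, at chr5:149614287-149636376 on the minus strand, measured 564, 502 and 518 CPM in WT IgG and 344, 287 and 298 CPM in A159V IgG. Its log2 fold change was -0.77 ± 0.14 (adjusted p = 0.00218). Both were called under all 35 alternatives, and neither shares a window of 100 bases with another gene.

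Hspb1 was near the floor of detection in WT and at or below it in A159V. It had 12, 9 and 20 counts in WT IgG and 0, 3 and 3 in A159V IgG. The fitted change was -2.78 ± 0.83 (adjusted p = 0.0260), a value that depends on the prior count. By summed counts, 41 against 6, WT IgG was 7.33-fold higher, with an exact 95% interval of 3.09 to 21.1 that covers counting error only.

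The constitutive members, Hsp90aa1 and the mitochondrial pair were not called under IgG. Hspa8 averaged 3738 ± 123 CPM in A159V IgG and 3754 ± 701 CPM in WT IgG (SD, n = 3), and the 95% interval of its log2 difference ran from -0.37 to 0.35. Hsp90ab1 averaged 4776 ± 368 and 4482 ± 365 CPM, with an interval of -0.21 to 0.40. Hsp90aa1 averaged 1115 ± 398 and 1305 ± 193 CPM, and Hspd1 1318 ± 337 and 1135 ± 152 CPM, each with A159V IgG replicate 5 as the lowest sample of its group. Hspe1 averaged 216 ± 40.1 and 348 ± 162 CPM, a log2 difference of -0.69 ± 0.25 that just missed the threshold (adjusted p = 0.0553). With 10 of the 12 possible TMM references it was called, with an adjusted p as low as 0.0332. WT IgG replicate 1 alone had 534 CPM of Hspe1, and without it the difference was -0.30.

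**Figure D2:**
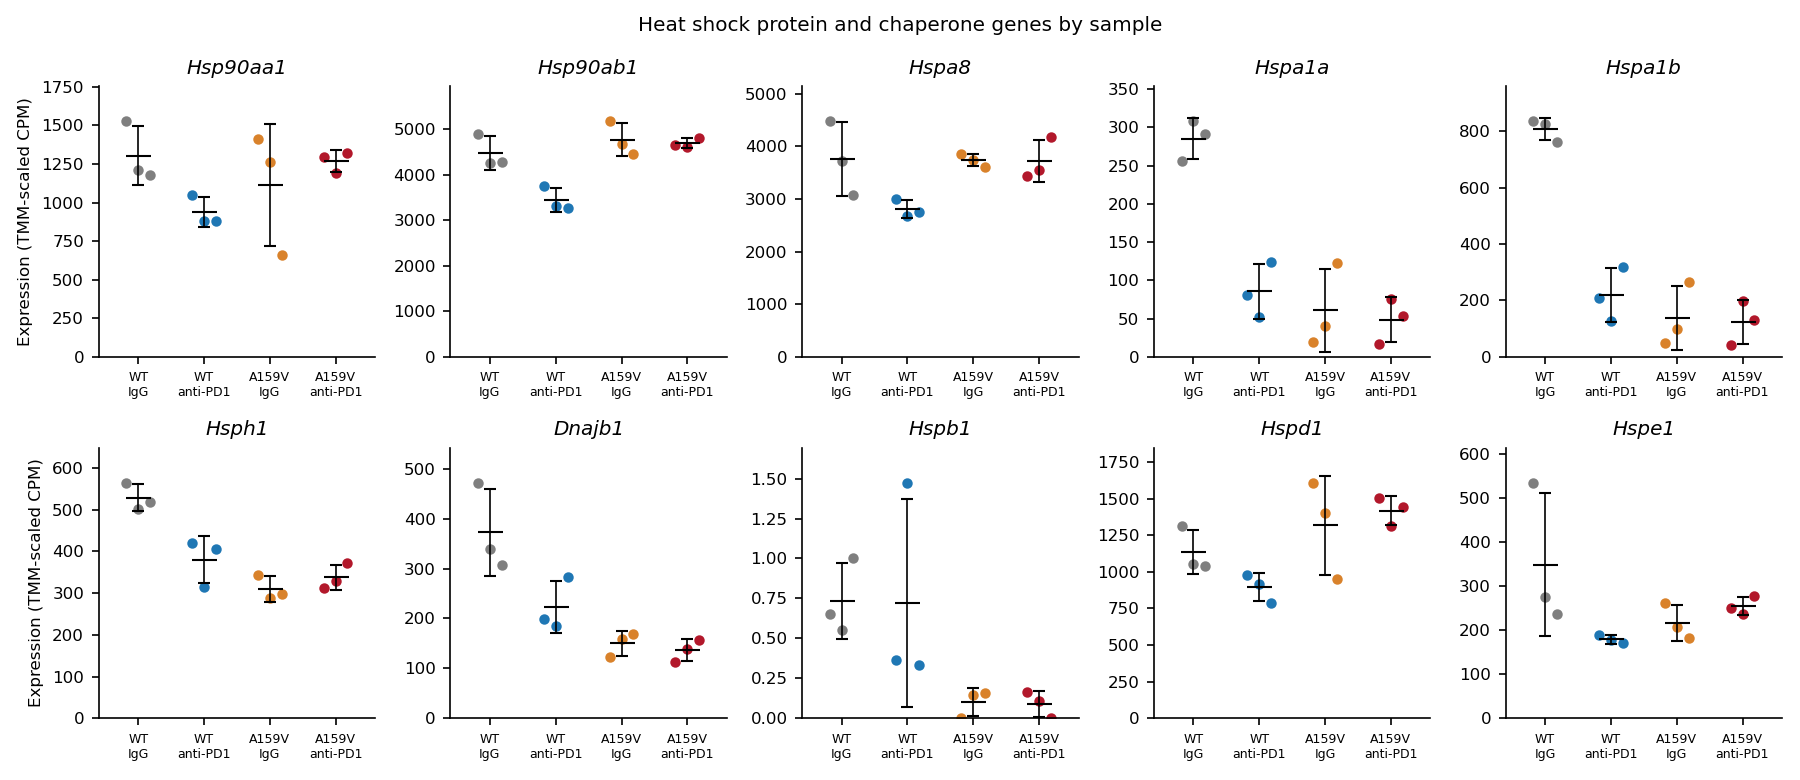
Expression of the 10 genes in every sample (TMM-scaled CPM, separate linear axes from 0), with points for samples and black bars for the mean and SD of 3. Hspa1a and Hspa1b are high in the WT IgG samples, between 256 and 308 and between 763 and 836 CPM, and lower in every other sample.

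The comparison of A159V anti-PD1 with WT anti-PD1 asks the same question in treated tumors. Hspd1 and Hsp90ab1 were higher in A159V, Dnajb1 and Hspb1 were lower, and the inducible HSP70 pair was not called. Of the 10 members, 2 were called higher and 2 lower, beside 11.2% and 10.2% of all genes tested. Without Hspb1 the counts were 2 higher and 1 lower of 9. The groups did not overlap for 7 members, Hspb1 among them, and for 56.2% of all genes tested.

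Hspd1 measured 977, 919 and 791 CPM in WT anti-PD1 against 1501, 1310 and 1442 CPM in the A159V counterparts. It changed by 0.66 ± 0.19 on the log2 scale (adjusted p = 0.0231), and the call held with all 12 TMM references. Hsp90ab1 measured 3747, 3309 and 3269 CPM in WT anti-PD1 against 4660, 4615 and 4817 CPM in A159V. It changed by 0.45 ± 0.13 on the log2 scale (adjusted p = 0.0300), but the call held with only 3 of the 12 references, with adjusted p up to 0.0737. Dnajb1 was again lower in A159V, at 114, 139 and 157 CPM against 199, 186 and 283 CPM, a log2 change of -0.71 ± 0.21 (adjusted p = 0.0300). Hspb1 had 7, 22 and 6 counts in WT anti-PD1 and 3, 2 and 0 in A159V anti-PD1, and 22 of the 35 WT counts came from 1 sample. Hspa1a and Hspa1b both differed by -0.81 on the log2 scale with overlapping groups, and the 95% interval for Hspa1b ran from -2.11 to 0.49. These calls depended on single samples: 0 members were called without A159V anti-PD1 replicate 1 or 3, and 1 without A159V anti-PD1 replicate 2 or without WT anti-PD1 replicate 2 or 3. Over all genes, these 5 fits called 643 to 1088 higher and 876 to 1142 lower.

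Averaged over both treatments, 1 member was called higher in A159V and 5 lower, beside 19.1% and 16.8% of all genes tested. Without Hspb1 the counts were 1 higher and 4 lower of 9. Hspd1 was the higher one (0.44 ± 0.13, adjusted p = 0.0183), a call that held with 11 of the 12 TMM references and was lost with A159V anti-PD1 replicate 2 as reference (adjusted p = 0.0526). The lower ones were those of the IgG comparison. Dnajb1 changed by -1.01 ± 0.15 (adjusted p = 0.000231).

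**Figure D3:**
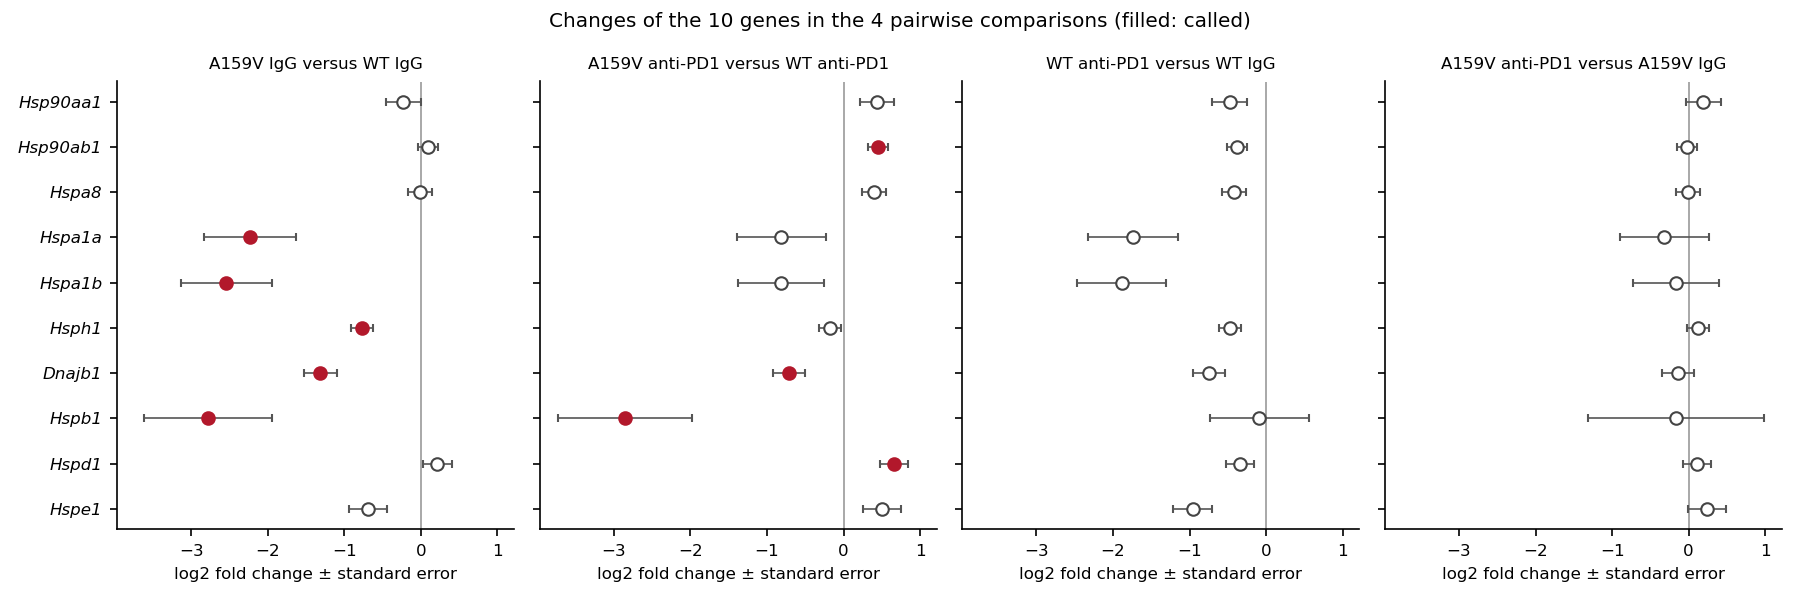
Log2 fold change of each gene in the 4 pairwise comparisons, with bars for the standard error; filled points were called and open points were not. The 5 filled points on the left are Hspa1a, Hspa1b, Hsph1, Dnajb1 and Hspb1, and the comparison of anti-PD1 with IgG has no filled point in either genotype.

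The comparison of WT anti-PD1 with WT IgG asks what treatment changes in WT tumors. All 10 members had negative changes and 0 were called, beside 0.495% of all genes tested called higher and 0.132% called lower. At an unadjusted p under 0.05, 3937 genes passed in this comparison, and DESeq2 called 6 members, beside 716 higher and 762 lower of all 14340 genes. The samples of the groups did not overlap for 9 members, all but Hspb1, and for 34.5% of all genes tested. Hspa1b measured 209, 128 and 318 CPM in WT anti-PD1, each well below the lowest WT IgG value of 763 CPM. Its log2 change was -1.89 ± 0.58 (adjusted p = 0.0876). Hspe1 had the smallest adjusted p among the members, 0.0725, with a log2 change of -0.96 ± 0.25. In WT IgG, replicate 1 had 534 CPM of Hspe1 against 274 and 236 CPM in the others. Over the alternatives the Hspe1 change ran from -1.18 to -0.52. Hsp90ab1, Hspa8 and Hspd1 differed by -0.38, -0.42 and -0.34. Without WT IgG replicate 4 the test called 6 members, beside 1792 higher and 1666 lower of 14646 genes. Without A159V IgG replicate 5 it called 2 members, beside 349 higher and 252 lower of 14729 genes.

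In A159V, anti-PD1 and IgG were not told apart for any member. Of all genes tested 0% were called higher and 0% lower, while 521 passed an unadjusted p under 0.05, DESeq2 called 2 genes and no member was called by any tool. The groups overlapped for all 10 members, beside 11.0% of all genes tested without overlap. The intervals were wide for the inducible pair, from -1.45 to 1.13 on the log2 scale for Hspa1b, and narrow for Hsp90ab1, from -0.33 to 0.28. Whether WT and A159V responded differently to anti-PD1 was tested as an interaction, in which 0% of all genes were called higher and 0.00697% lower, and no member was called. Hspe1 came closest, with a log2 difference of 1.19 ± 0.35 (adjusted p = 0.193). Its difference ran from 0.74 to 1.43 over the alternatives, and WT IgG replicate 1, with 534 CPM of Hspe1, enters it. At an unadjusted p under 0.05, 2517 genes passed. Thus the larger effect in WT was not shown to differ from that in A159V.

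Hspa8 shares sequence with another row of the table. Gm26825, a lincRNA on chromosome 5, overlaps on the opposite strand a processed pseudogene that shares sequence with Hspa8, and 58.5% of the windows of 100 bases of the Hspa8 transcript occur in it. It had between 12766 and 26497 counts, which equals 27.1% of the Hspa8 counts in A159V IgG replicate 5 and 31.3% to 32.8% in the other 11 samples. With both rows summed under an unchanged TMM reference, the log2 change of Hspa8 between A159V IgG and WT IgG was -0.03 (adjusted p = 0.896), and no call of any member changed. Windows of 100 bases that occur in another gene also made up 47.5% of those of Hsp90aa1, 42.7% for Hspb1, 26.9% for Hspd1 and 22.4% for Hspe1. How reads there were counted is not stated. Hspd1 and Hspe1 overlap at their first exons on opposite strands, and the strand setting of the counting is not stated. Hspe1 counts were 40.8% of those of Hspd1 in WT IgG replicate 1 and 14.8% to 26.0% in the other samples.

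Within groups, the members did not move as a block. The deviations of log2 CPM from the group means over 12 samples had a Pearson r of 0.993 for Hspa1a and Hspa1b and of 0.956 for Hsp90aa1 and Hspd1, whereas Hspa1a and Hspd1 gave -0.803. These points share their libraries and the scaling. A159V IgG replicate 5 had the lowest Hsp90aa1 (663 CPM) and Hspd1 (949 CPM) and the highest Hspa1a (122 CPM) of its group. The correlations of these genes may rest largely on that library, and none was computed without it. By the same measure, the gene most like Hsp90aa1 was Trmt10c (0.993), those most like Hspd1 were Strap (0.987) and Sfxn1 (0.985), and those most like Hspe1 were Smim11 (0.994) and Arl3 (0.986). Tubb2b (0.981) and Glmp (0.958) were closest to Dnajb1.

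Related chaperones were examined through lists written by name. Of all genes tested, 15.6% were called higher and 12.4% lower in A159V under IgG, and 11.2% and 10.2% under anti-PD1. Of 16 mitochondrial chaperones and proteases, 4 were higher in A159V under IgG and 8 under anti-PD1, and 0 were lower in either. Under IgG these included Afg3l2, a protease of the inner membrane (0.65 ± 0.12), Dnaja3, a J-domain partner of Hspa9 (0.52 ± 0.12), and Hspa9, the mitochondrial HSP70 (0.63 ± 0.17). The median log2 change of the list was 0.19, against 0.02 for all genes tested. Of 16 genes of the HSP90 system, 1 was higher and 2 lower under IgG, and 6 were higher under anti-PD1, among them Stip1, which links HSP70 to HSP90 (0.55 ± 0.13), Nudc, a cochaperone of HSP90 (0.82 ± 0.20), and Fkbp4, an immunophilin of HSP90 (0.59 ± 0.16). TRiC and prefoldin, which fold actin and tubulin, had 1 of 16 higher and 1 lower under IgG and 4 higher under anti-PD1, among them Cct7 (0.56 ± 0.16) and Cct3 (0.54 ± 0.15). The anti-PD1 counts depended on the scaling. Over 14 scalings (each library as TMM reference, RLE and upper quartile), compared after the data were seen, the mitochondrial list had 2 to 8 genes higher, the HSP90 system 2 to 6 and TRiC and prefoldin 0 to 4, with 0 lower in each. The medians of these lists stayed positive under anti-PD1, at 0.31 to 0.40, 0.33 to 0.42 and 0.37 to 0.47 on the log2 scale. Under IgG the mitochondrial list kept 3 or 4 genes higher, with a median of 0.04 to 0.19, whereas the medians of the HSP90 system and of TRiC and prefoldin changed sign with the scaling.

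In the HSP70 system, 1 of 27 genes was higher and 1 lower under IgG, namely Bag2, a cochaperone (0.38 ± 0.12), and Dnajb4 (-1.37 ± 0.25), and 4 were higher and 2 lower under anti-PD1. Among 22 chaperones of the endoplasmic reticulum, 3 were higher under IgG, led by Hyou1 (0.96 ± 0.15, adjusted p = 0.000832). The shares over all genes tested were 15.6% higher and 12.4% lower under IgG, and 11.2% and 10.2% under anti-PD1. Over the 14 scalings, 0 to 1 genes of the HSP70 system were higher and 1 to 3 lower under IgG, and 1 to 3 of the endoplasmic reticulum list were higher. Of 5 other small heat shock proteins tested, 1 was higher and 1 lower under IgG, and 0 and 2 under anti-PD1. Hspb8, the most abundant of them, measured 193 to 216 CPM in A159V IgG against 140 to 172 CPM in WT IgG. Under anti-PD1 it measured 149 to 201 CPM in A159V and 166 to 174 CPM in WT, with overlap. Cryab, another of them, was lower in A159V under IgG (-1.91 ± 0.43) and under anti-PD1 (-3.17 ± 0.43). Cryab measured 0.423 to 0.912 CPM in A159V against 2.16 to 10.05 CPM in WT. Hsf1 and Hsf2, the transcription factors of the pathway, were not called in any comparison, and Hsf2 measured 13.2 CPM in A159V IgG replicate 5 and 33.0 to 42.7 CPM in the other 11 samples. Hsf4, another member of the HSF family, was lower in A159V IgG (-3.97 ± 0.55). It measured 0.106 to 0.425 CPM there, near the floor of detection, against 2.75 to 7.57 CPM in WT IgG. Under anti-PD1 it measured 0.0556 to 0.381 CPM in A159V and 1.07 to 1.78 CPM in WT. Like Hspb1, Hsf4 passed the filter on low counts only through the WT samples.

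**Figure D4:**
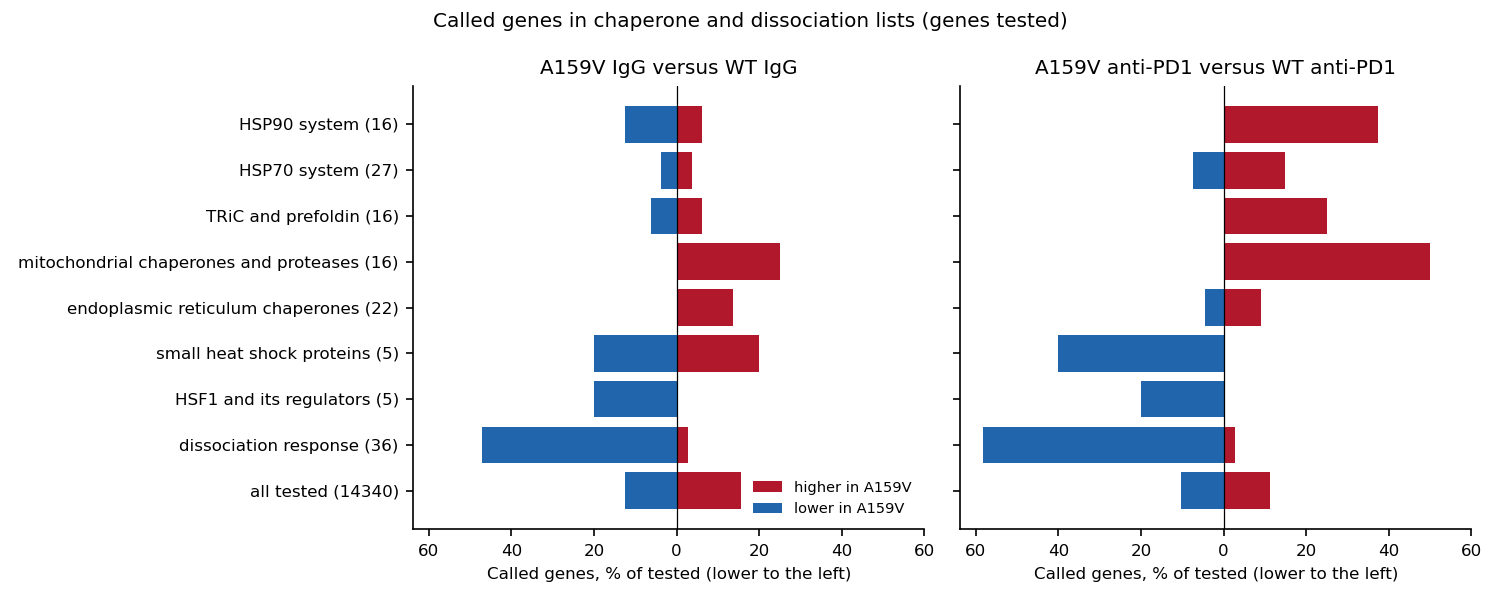
Genes called higher (red, right) or lower (blue, left) in A159V as a percentage of the genes tested in each list, whose number is given in parentheses. The dissociation response has 17 of 36 genes lower under IgG and 21 under anti-PD1, and the mitochondrial list has no blue bar.

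Genes induced by tissue dissociation, a list of immediate early and stress genes without any member, moved with the genotype as well. Of 36 tested, 17 were lower and 1 higher in A159V IgG, beside 12.4% and 15.6% of all genes tested. In A159V anti-PD1, 21 were lower and 1 higher, beside 10.2% and 11.2% of all genes tested. The median log2 change of the list was -0.57 and -0.80, and over the 14 scalings 17 to 21 and 21 to 22 genes were lower. Klf4, a transcription factor, changed by -1.33 ± 0.22 and -2.91 ± 0.23, and Egr2, an immediate early factor, by -2.57 ± 0.34 and -4.03 ± 0.37. The mean log2(CPM + 1) of the list was 7.90 to 8.26 in WT IgG and 8.01 to 8.44 in WT anti-PD1, so these groups overlapped, and 7.18 to 7.60 in A159V IgG and 7.02 to 7.32 in A159V anti-PD1. In WT anti-PD1 2 genes of the list rose, Fosl2 (0.95 ± 0.14) and Egr3 (2.54 ± 0.39), and 0 fell, beside 0.495% and 0.132% of all genes tested. Hspa1a and Hspa1b, in contrast, lay lower in WT anti-PD1 than in WT IgG. The part of dissociation in the differences of the members was not tested.

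Markers of other cells also differed between the groups. In bulk samples, fewer cells of a type and less RNA per cell cannot be told apart. The summed level of 20 leukocyte markers was 39.5 to 47.6 CPM in WT IgG, 78.5 to 118 in WT anti-PD1, 50.7 to 66.9 in A159V IgG and 51.3 to 57.6 in A159V anti-PD1, and Ptprc, the pan-leukocyte gene, was at most 0.278 CPM in A159V. The higher sum in A159V IgG than in WT IgG came mainly from Cd68, a macrophage marker, at 33.6 to 50.0 CPM against 20.01 to 25.3 CPM. Most other markers went the other way. Of 14 tested, 10 had negative changes in A159V IgG, and the median log2 change was -1.49. Among them 6 were called lower and 1 higher, beside 12.4% and 15.6% of all genes tested. By the mean log2(CPM + 1) of the list the ranges overlapped, at 0.80 to 0.83 and 0.77 to 1.12. The leukocyte level used as a covariate was the log2 of the sum of the 20 markers. Cd68 was the largest term of that sum, so the covariate follows Cd68 more than the other markers. With this covariate, 3 members were called between the genotypes under IgG and 0 under anti-PD1. The calls over all 14340 genes were then 953 higher and 830 lower under IgG and 36 higher and 235 lower under anti-PD1. The calls lost under IgG were Hspa1a and Hspa1b, whose log2 changes were then -2.47 (adjusted p = 0.0843) and -2.71 (adjusted p = 0.0582) by edgeR. The 8 fibroblast and pericyte markers summed to 238 to 463 and 356 to 610 CPM in WT and to 161 to 229 and 135 to 189 CPM in A159V. Erythroid and muscle markers reached 74.1 and 118 CPM in WT anti-PD1 replicates 2 and 3, where the muscle actin Acta1 measured 43.5 and 31.1 CPM, and WT anti-PD1 replicate 2 was also the highest sample for Hspb1 and Cryab. The 11 epithelial markers summed to at most 8.34 CPM in any sample and Epcam to at most 0.109, although the cells are labelled as an adenocarcinoma. The part of these cells in the results was not tested.

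**Figure D5:**
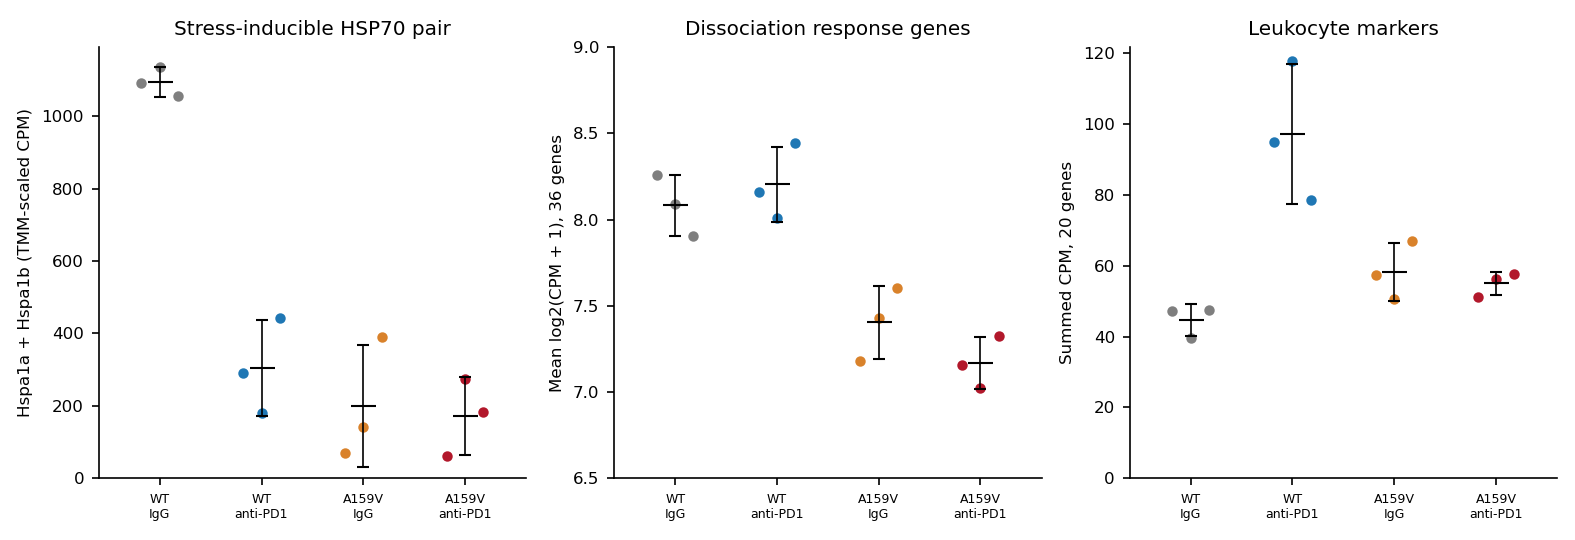
Summed level of Hspa1a and Hspa1b, mean log2(CPM + 1) of 36 dissociation response genes (axis not from 0) and summed level of 20 leukocyte markers in each sample, with bars for the mean and SD of 3. The HSP70 pair is low in 3 groups, the dissociation genes are low in the 2 A159V groups, and the leukocyte markers are high in WT anti-PD1.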

How the data were processed

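The authors sequenced polyA-selected RNA with paired reads, aligned them to mm10 with STAR, counted reads per gene with summarizeOverlaps and deposited the raw counts without normalization. How reads on overlapping genes or strands were counted is not given in the sources used here. Samples were grouped by their labels. Counts were tested with edgeR 4.0.16 in R 4.3.3: filterByExpr, TMM scaling with the default reference library, and 1 quasi-likelihood fit of all 12 samples with 8 residual degrees of freedom. P-values are two-sided and adjusted by Benjamini-Hochberg over 14340 genes. Log2 CPM used a prior count of 2. SE is the log2 change divided by the root of F. Named genes are the members, Hsf1 and Hsf2, up to 3 called genes per list and direction by smallest p, and the 2 genes most like a member, of which 1 is not reported here. Genes and values given for cell markers, Gm26825 and Hspb8 were chosen after their values were seen. Members and lists were chosen with earlier results of these data known. DESeq2 1.42.0 and limma voom 3.58.1, other scalings, filters, covariates and left-out samples were alternatives. The fit was tested on simulated data. Replicate numbers mark different mice.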

Additional observations from a re-analysis of the deposited data

How the results depend on the processing

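For single members, each result was set beside each alternative. Among these pairs of result and alternative, 46 lost a call, 62 gained one and 1958 were unchanged. Of the 46, 20 concerned Hsp90ab1 in A159V anti-PD1 versus WT anti-PD1. No called change turned direction. The counts of members below include Hspb1 where it was tested. The number of members called averaged over treatments stayed within 1.5 times its value of 6 under all alternatives. For WT anti-PD1 versus WT IgG (0 called), 4 were called with no filter on low counts, 6 with DESeq2 and 8 with the replicate block. For A159V anti-PD1 versus WT anti-PD1 (4 called), 2 were called with at least 10 counts in every sample, 0 with the leukocyte covariate and 7 with the replicate block. For A159V IgG versus WT IgG (5 called), 3 were called with the leukocyte covariate. The interaction (0 called) had 5 with the replicate block. The calls over all genes moved as well. For WT anti-PD1 versus WT IgG they were 440 higher and 331 lower of 23702 with no filter, 716 and 762 of 14340 with DESeq2, and 2526 and 2124 with the replicate block. For A159V anti-PD1 versus WT anti-PD1 they were 887 and 1127 of 12137 with at least 10 counts, 36 and 235 with the covariate, and 2807 and 2211 with the block. For A159V IgG versus WT IgG they were 953 and 830 with the covariate, and for the interaction 1182 and 1578 with the block. The replicate numbers were not taken as pairs, since same-numbered samples came from different mice. Their deviations had correlations of -0.178 to 0.205, against -0.224 to 0.229 for samples with different numbers. Whether samples shared a batch by number was not tested. Only WT IgG replicate 4 carries the number 4, and only A159V IgG replicate 5 the number 5. The replicate block gives each of these libraries its own term and in effect sets it aside. Leaving out 1 sample gave 3 to 6 members (A159V IgG versus WT IgG), 0 to 6 (A159V anti-PD1 versus WT anti-PD1), 5 to 7 (averaged), 0 to 6 (WT anti-PD1 versus WT IgG) and 0 to 1 (interaction). The lowest of the first came without A159V IgG replicate 2.

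Scaling moved the balance of calls. Between A159V IgG and WT IgG, 2231 genes were higher and 1779 lower with TMM, 1680 and 2052 with RLE size factors, and 1337 and 2313 with upper-quartile normalization, where the median of all genes was -0.12. The TMM result rests on the default reference, A159V IgG replicate 5. With A159V IgG replicate 1, nearly tied by edgeR's rule, 1642 were higher and 2064 lower, and Hspe1 was called. The causes were not tested.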
